A study of Mus musculus with 66 samples.

Results

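The 10 genes followed here were grouped as the goblet cell mucus and secretory program of the mouse colon: Atoh1, Spdef, Agr2, Muc2, Fcgbp, Clca1, Zg16, Tff3, Spink4 and Sycn. The levels of Sycn were the least like those of the others, as given below. The levels of all 10 were read through a course of chemical colitis. They were chosen by name, and each of the 10 had transcripts with values among the 30452 genes of the deposited table. Abundances are in TPM, a transcript level scaled for length and library size, summed over the transcripts of a gene. The tissue came from 19 wild-type C57Bl/6 mice bought at 6 weeks of age. DSS (dextran sulfate sodium), which damages the lining of the colon, was given at 3% for 6 days from day 0. Dissected at day 0 were 4 mice without DSS, as uninjured controls, and 3 mice at each of days 3, 6, 9, 14 and 20. Each mouse gave a mid-colonic, a rectal and an anal section, and the 9 mice of days 9, 14 and 20 also gave a section of the squamous neo-epithelium of the colon, which makes 66 bulk RNA-seq samples. Per the series' design text, muscle was stripped from the sections before RNA was taken; the anal samples still held skeletal muscle transcripts, given with their values below. The mice of a day differ from those of every other day, so a change over time is a difference between mice, and p-values measure the spread between these mice. All members passed the filter on low values in every comparison except Atoh1 at anal days 6, 9 and 14.

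Goblet cells are the secretory epithelial cells that make the mucus gel of the colon. Atoh1 is the basic helix-loop-helix factor that commits a crypt progenitor to a secretory fate, and Spdef is an ETS-family factor that acts below it in goblet cell maturation. Agr2 is a disulfide isomerase of the endoplasmic reticulum that is needed to make the gel-forming mucin Muc2. Fcgbp, the protease Clca1 and the lectin Zg16, which binds Gram-positive bacteria, are secreted into the same mucus, and so is the trefoil peptide Tff3. Spink4 is a Kazal-type protease inhibitor of goblet cells. Sycn encodes syncollin, best known from the secretory granules of the exocrine pancreas.

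The sequence before the start of 6 of the 10 genes was found in RefSeq (build GRCm38.p6). The 250 bases before the start are shown for 3 genes that were higher in the rectum at day 6, Muc2, Fcgbp and Agr2, and for Sycn, which was lower. The higher values of Muc2 and Fcgbp came from transcripts of the 3′ end, given below, which do not start next to this sequence. Capitals mark matches on either strand to 3 short motifs: the E-box CAGNTG, the kind of site bound by helix-loop-helix factors such as Atoh1, the ETS-type core CGGAT, and TGACG, found in elements of the stress response of the endoplasmic reticulum.
Muc2 (chr7:141690090-141690339, plus strand): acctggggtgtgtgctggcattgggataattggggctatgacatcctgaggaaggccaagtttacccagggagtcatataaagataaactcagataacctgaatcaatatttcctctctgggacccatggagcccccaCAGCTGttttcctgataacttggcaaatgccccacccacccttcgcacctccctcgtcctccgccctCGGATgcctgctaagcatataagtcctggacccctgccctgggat
Fcgbp (chr7:28070986-28071235, plus strand): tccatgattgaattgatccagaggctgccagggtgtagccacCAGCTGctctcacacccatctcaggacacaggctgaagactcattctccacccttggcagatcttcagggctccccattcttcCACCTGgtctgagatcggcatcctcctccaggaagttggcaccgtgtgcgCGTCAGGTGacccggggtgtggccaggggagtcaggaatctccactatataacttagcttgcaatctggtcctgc
Agr2 (chr12:35992675-35992924, plus strand): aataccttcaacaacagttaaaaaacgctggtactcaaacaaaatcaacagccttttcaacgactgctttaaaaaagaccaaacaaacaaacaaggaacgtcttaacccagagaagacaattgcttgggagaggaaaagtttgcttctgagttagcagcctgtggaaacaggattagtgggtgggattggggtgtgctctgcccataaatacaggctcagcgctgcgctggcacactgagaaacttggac
Sycn (chr7:28540635-28540884, plus strand): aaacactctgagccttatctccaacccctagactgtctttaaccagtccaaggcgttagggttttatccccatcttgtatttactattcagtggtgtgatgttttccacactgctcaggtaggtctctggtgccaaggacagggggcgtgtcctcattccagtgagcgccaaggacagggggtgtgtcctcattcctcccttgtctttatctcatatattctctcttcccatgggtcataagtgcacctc
Muc2 held 1 E-box, CAGCTG, which starts 112 bases before the start of the gene, and 1 CGGAT, which starts 45 bases before it. Fcgbp held 3 E-boxes, which start 208, 125 and 72 bases before the gene, and the one nearest to the gene shares bases with its single TGACG match, CGTCA on the strand shown. Agr2 and Sycn held none of the 3. Among 27025 mouse promoters of the same length, 44.5% held CAGNTG, 13.3% CGGAT and 17.9% TGACG, so each motif is common and a match is a description of the letters only.

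Before injury the 10 genes were among the abundant transcripts of the colon. Their summed level was 28174 ± 2790 TPM (SD, n = 4) in the mid-colon and 17325 ± 1457 TPM (SD, n = 4) in the rectum, or 2.82% and 1.73% of all TPM. In the rectum, as mean ± SD in TPM over the 4 mice, the order ran from Zg16 (5786 ± 807) through Tff3 (3135.5 ± 359), Sycn (2825 ± 302), Clca1 (2304 ± 262), Agr2 (1111 ± 158) and Spink4 (871 ± 133) to Fcgbp (672 ± 83.9) and Muc2 (595 ± 59.7). The factors Spdef (13.8 ± 2.4) and Atoh1 (11.6 ± 1.8) were far below the secreted products. TPM is a level per length of transcript, so levels can be set beside each other where the transcript models span the gene. The models of Muc2 cover only parts of it, and so do most of those of Fcgbp. Their places in the order therefore depend on which models are summed. The ranges of neighbours in this order overlapped, except those of Zg16 and Tff3, of Clca1 and Agr2, and of Muc2 and Spdef. Within each single mouse, Agr2 was also above Spink4, Spink4 above Fcgbp and Fcgbp above Muc2.

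In the rectum 3 members were lower than in the mid-colon at day 0, with differences of -0.96 for Zg16 on the log2(TPM + 1) scale (SE 0.13, adjusted p = 0.0145), -0.89 for Clca1 (SE 0.10, adjusted p = 0.00605) and -0.67 for Tff3 (SE 0.12, adjusted p = 0.0306), each with no overlap between the groups of 4 mice. Of all 12037 genes tested, 0.274% were lower. The test here and throughout is limma's moderated test, with p-values adjusted by Benjamini-Hochberg over every gene tested. A call is an adjusted p under 0.05. Sections of one mouse were not paired in this test unless a fit with the mouse as a block is named. The call of Zg16 held in 4 and that of Tff3 in 3 of 8 refits that each left out 1 sample, and no member was called when the 38 mid-colon and rectum samples entered one fit. All log2 values below are differences on this scale, which understates the change of genes at low levels.

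Gene positions are given on GRCm38, and Zg16, Fcgbp, Sycn and Muc2 lie on chromosome 7. The sections carried the markers of their labels. The 8 squamous epithelial genes (Krt5, Krt14, Krt13 and others) summed to a mean of 12652 TPM in the anus at day 0, 5.86 TPM in the mid-colon and 73.3 TPM in the rectum. The neo-epithelium had a squamous sum of 31533 TPM on day 9, and its 8 intestinal epithelial genes (Cdh17, Vil1, Lgals4 and others) summed to 352 TPM there, against 5922 TPM in the rectum of the same mice. Libraries that stood apart for the members were mid-colon of mouse 18 at day 20, rectum and neo-epithelium of mouse 14 at day 14, mid-colon of mouse 16 at day 14, anus of mouse 17 at day 20 and anus of mouse 4 at day 0. In bulk tissue, fewer cells of a type and less RNA per cell cannot be told apart.

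Through the course of colitis the colonic members did not move as one block. In the rectum 8 were higher at day 6, 6 were lower at day 9 and 4 were higher at day 14, and Atoh1 and Sycn were lower at day 6 while the other 8 were higher. The number of members called at each day is given first, beside the share of all tested genes called in the same direction. At rectal day 3, 4 members were higher (1.5% of all genes) and 1 was lower (5.13%). At rectal day 6, 8 were higher (11.5%) and 2 lower (37.2%), and the median of the 10 was 0.85 against -0.27 over all 12615 genes. At rectal day 9, 6 were lower (20%), with a median of -0.66 against 0.13. At rectal day 14, 4 were higher (6.31%) and 1 lower (9.51%), and at rectal day 20 1 was higher (2.79%) and 1 lower (4.88%).

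The mid-colon had fewer calls. Zg16 alone was lower at day 3 (0.308% of all genes). At day 6, 4 members were higher (4.93%) and 2 lower (9.99%). At day 9, 5 were lower (17%). At day 14, 3 were higher (2.55%) and 1 lower (1.81%). At day 20 limma called none of the 10, with 4 at an unadjusted p under 0.05, while 1.56% of all genes were called in either direction. The 2 sections were compared directly: limma called no member for a difference between the rectal and the mid-colonic change from day 0 at day 6 (4 members at an unadjusted p under 0.05, 0% of all genes called) or at day 9 (1 member at an unadjusted p under 0.05, 6.55% of all genes called in either direction). With the mouse as a block, which pairs the sections of one animal, the rise at day 6 was larger in the rectum for Spink4 by 0.85 (adjusted p = 0.0148) and for Clca1 by 0.74 (adjusted p = 0.0213). The block fit called 65 of 12986 genes higher and 11 lower.

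These counts depend on which samples set the spread. With the 38 mid-colon and rectum samples in one fit, 8 members were called at rectal day 6, 4 at rectal day 9, 0 at rectal day 3 and 3 at mid-colonic day 6. Among all genes, that fit called 1017 higher and 3448 lower of 12615 at rectal day 6, and 4183 and 2588 of 13140 at rectal day 9. It called 40 and 261 of 12348 at rectal day 3, and 454 and 2062 of 11967 at mid-colonic day 6. With all 66 samples in one fit, 1 member was called at rectal day 6 (Spink4), 2 at rectal day 9 (Atoh1 and Sycn) and 0 at mid-colonic day 6. Among all genes, the fit of 66 samples called 976 higher and 3499 lower at rectal day 6, and 4228 and 2454 at rectal day 9. At mid-colonic day 6 it called 430 higher and 2087 lower, against 590 and 1195 in the main fit.

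**Figure D1:**
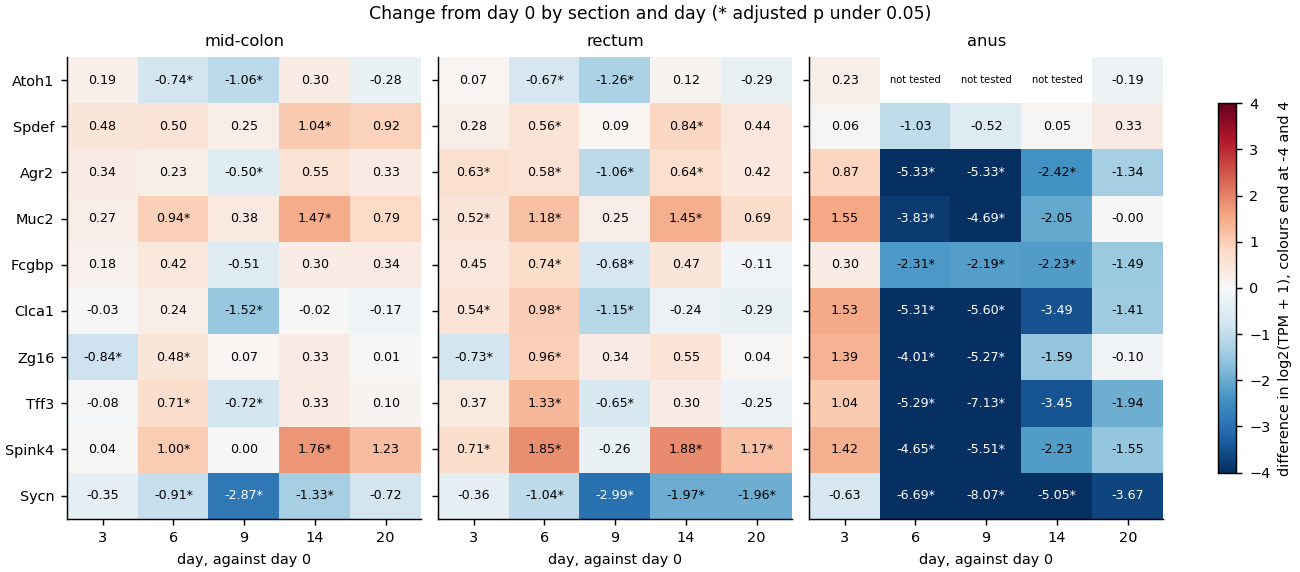
Difference in log2(TPM + 1) from day 0 for the 10 genes (rows) by day (columns) in mid-colon, rectum and anus, with the value in each cell and an asterisk where limma's adjusted p was under 0.05. Rectum day 6 has an asterisk in all 10 rows, with Atoh1 and Sycn at -0.67 and -1.04, and the anus has values from -2.19 to -8.07 for 8 genes at days 6 and 9.

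**Figure D2:**
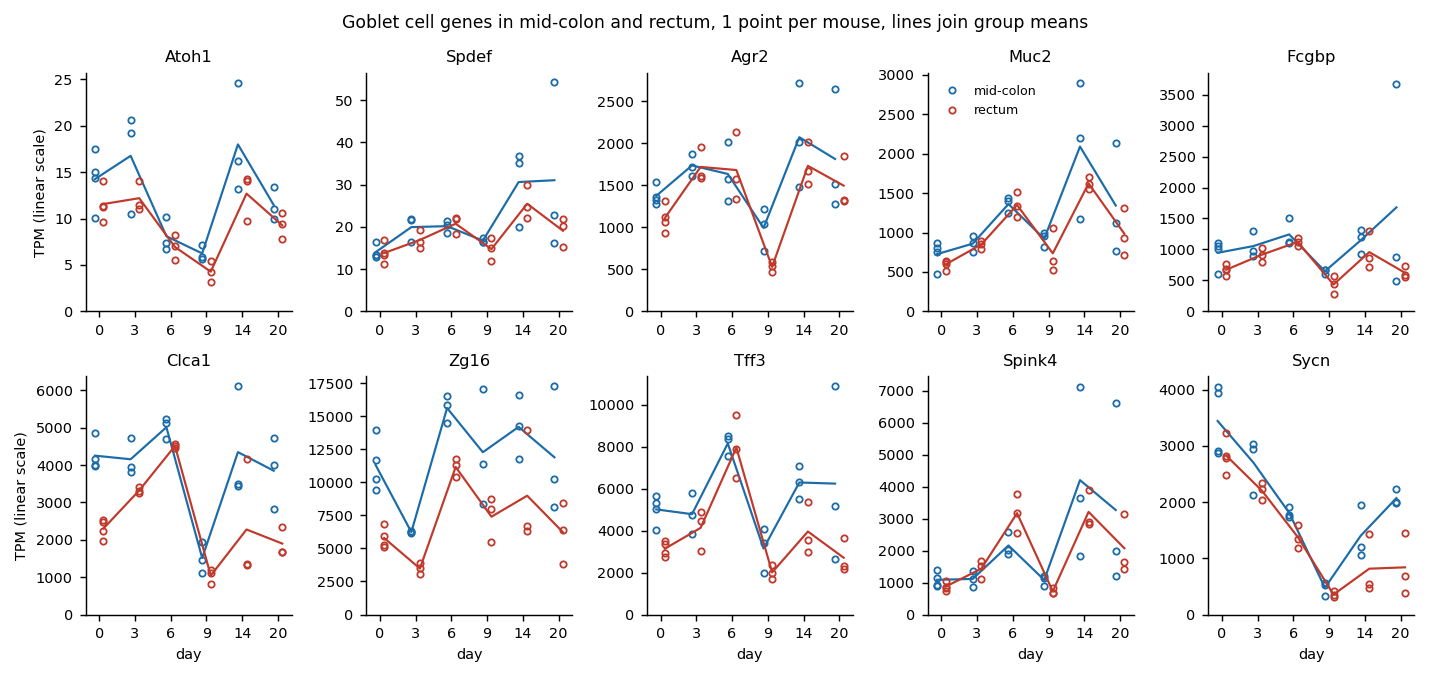
TPM of each gene (linear axis from 0) by day in mid-colon and rectum, with 1 point per mouse and lines through the group means. Rectal Clca1 has a mean of 4514 TPM on day 6 and 1043 TPM on day 9, rectal Sycn goes from 2825 to 355 TPM between days 0 and 9, and mouse 18 is the high mid-colonic point of day 20 for Fcgbp, Spink4, Tff3 and Spdef.

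The lineage factor Atoh1 (ENSMUSG00000073043, chr6:64729125-64731245) was lower at days 6 and 9 in both colonic sections. Rectal Atoh1 was 14, 11.2, 11.4 and 9.68 TPM in the 4 mice of day 0, 8.19, 7.08 and 5.54 TPM in the 3 of day 6 and 5.44, 3.18 and 4.22 TPM in the 3 of day 9, with no overlap with day 0 on either day. The log2 difference was -0.67 (SE 0.16, adjusted p = 0.0104) at day 6 and -1.26 (SE 0.19, adjusted p = 0.000533) at day 9. In the mid-colon it was -0.74 (SE 0.21, adjusted p = 0.0458) at day 6, where 1 mouse overlapped the controls, and -1.06 (SE 0.21, adjusted p = 0.00253) at day 9. By day 14 rectal Atoh1 was back at 14, 14.3 and 9.78 TPM, within the range of day 0 except for the highest mouse, and the difference from day 0 was 0.12 (SE 0.17, adjusted p = 0.663).

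Spdef (ENSMUSG00000024215, chr17:27714446-27731003), the maturation factor, was not called lower on any day in either colonic section. Rectal Spdef was 16.9, 11.1, 13.3 and 13.9 TPM on day 0, 18.3, 22.1 and 21.8 TPM on day 6, 14.9, 12 and 17.3 TPM on day 9 and 24.6, 29.8 and 22 TPM on day 14. It was higher at day 6 by 0.56 (SE 0.15, adjusted p = 0.0147) and at day 14 by 0.84 (SE 0.16, adjusted p = 0.0182), without overlap with day 0, and at day 9 its mice overlapped those of day 0. In the mid-colon Spdef was higher at day 14 by 1.04 (SE 0.23, adjusted p = 0.0394), with mice at 20, 36.8 and 35 TPM, and it was 22.7, 54.2 and 16.2 TPM on day 20, where mouse 18 was at the top and the difference was not called. That call at mid-colonic day 14 held in 2 of 7 refits that each left out 1 mouse, and the rectal one at day 14 in 5 of 7. Spdef was 1 of 4 members not called at rectal day 9, with Muc2, Zg16 and Spink4.

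Agr2 (ENSMUSG00000020581, chr12:35992925-36004081), which folds mucin in the endoplasmic reticulum, was higher in the rectum at days 3, 6 and 14 and lower at day 9. The rectal values of Agr2 were 1068, 933, 1128 and 1315 TPM on day 0, 1958, 1592 and 1605.5 TPM on day 3, 1337, 1575 and 2132 TPM on day 6 and 467, 536 and 585 TPM on day 9. No group overlapped day 0. The log2 difference was 0.63 (SE 0.13, adjusted p = 0.0178) at day 3, 0.58 (SE 0.17, adjusted p = 0.0222) at day 6, -1.06 (SE 0.14, adjusted p = 0.000249) at day 9 and 0.64 (SE 0.15, adjusted p = 0.0283) at day 14. The call at day 6 held in 4 of 7 refits without 1 mouse and that at day 14 in 3 of 7, while the fall at day 9 held in all 7. In the mid-colon Agr2 was called at day 9 alone, with -0.50 (SE 0.17, adjusted p = 0.0398), a call that held in 1 of 7 refits.

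Muc2 (ENSMUSG00000025515, chr7:141690340-141754691), the mucin that forms the gel, was also higher in the rectum at days 3, 6 and 14. Its rectal values were 596, 510.4, 643 and 630.4 TPM on day 0, 898, 856.5 and 792 TPM on day 3, 1342, 1509 and 1196.5 TPM on day 6, 633, 523 and 1052 TPM on day 9 and 1555, 1611 and 1702 TPM on day 14. Every mouse of days 3, 6 and 14 was above every mouse of day 0, and at day 9 the mice overlapped the controls. The log2 difference was 0.52 (SE 0.10, adjusted p = 0.0141) at day 3, 1.18 (SE 0.11, adjusted p = 0.000275) at day 6 and 1.45 (SE 0.10, adjusted p = 0.000979) at day 14, and the first of these was called in 5 of 7 refits without 1 mouse. In the mid-colon Muc2 was higher by 0.94 (SE 0.20, adjusted p = 0.0148) at day 6 and by 1.47 (SE 0.31, adjusted p = 0.0362) at day 14, with mice at 1395, 1436 and 1252 TPM and 1170.0, 2899 and 2202 TPM against 752, 872, 806 and 473 TPM on day 0. The call at mid-colonic day 14 held in 2 of 7 refits without 1 mouse.

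Fcgbp (ENSMUSG00000047730, chr7:28071236-28120864), a large mucus protein, was higher in the rectum at day 6 by 0.74 (SE 0.11, adjusted p = 0.00164) and lower at day 9, with -0.68 (SE 0.21, adjusted p = 0.0257). Its values were 768, 564.5, 691 and 666 TPM on day 0, 1127, 1184 and 1052 TPM on day 6 and 446, 288 and 564 TPM on day 9, with no overlap with day 0 on either day. The fall at day 9 was called in 3 of 7 refits without 1 mouse. In the mid-colon Fcgbp was not called on any day, and at day 20 its mice were at 870.3, 3677 and 490.4 TPM.

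For both Muc2 and Fcgbp, the higher values of rectal day 6 came from transcripts of the 3′ end of the gene. Muc2 is represented by 8 transcript models, 6 within its 5′ part and 2 at its 3′ end. The sum of the 2 models of the 3′ end was 486.5, 415, 540.2 and 548.5 TPM at rectal day 0 and 1266, 1395 and 1142 TPM on day 6, a difference of 1.35 (SE 0.12, adjusted p = 0.000187). The sum of the 6 models of the 5′ part was 109.7, 95.4, 102.5 and 81.9 TPM on day 0 and 75.7, 114 and 54.1 TPM on day 6, a difference of -0.32 (SE 0.22, adjusted p = 0.262). The 5′ part was not called on any day in either colonic section, and at rectal days 3 and 6 its value had the opposite sign to that of the whole gene (-0.22 and -0.32). It was also negative at rectal day 20 (-0.03) and mid-colonic days 3 (-0.01) and 20 (-0.29), each smaller than its SE. The 3′ sum was positive there (0.79, 0.33 and 0.90), and on the remaining days both parts were positive. The 3′ sum was called higher at rectal days 3 (0.63), 6, 14 (1.60) and 20 (0.79) and at mid-colonic days 6 (1.04) and 14 (1.56). The log2 ratio of the 3′ to the 5′ sum was 2.35 ± 0.29 (SD, n = 4) at rectal day 0 and 4.03 ± 0.39 (SD, n = 3) at day 6, with no overlap. Its rectal values at days 3, 6, 14 and 20 did not overlap day 0 (p = 0.0571 for each by a two-sided exact permutation test, the smallest that 3 against 4 mice allow, and 0.143 after Benjamini-Hochberg adjustment over 10 tests), and at day 9 it was 2.54 ± 0.57 (SD, n = 3). In the mid-colon the ratio of every later day overlapped that of day 0.

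Fcgbp was split in a like way. A short processed transcript at its 3′ end (chr7:28115614-28120861) was at 408, 446 and 481 TPM in the 3 mice of rectal day 6, while at day 0 it was 43.7 and 71.5 TPM in 2 mice and near 0 in the other two. Its difference was 5.88 (SE 1.52, adjusted p = 0.0138), a size that depends on the pseudocount because of the mice near 0. The full-length transcript (chr7:28071236-28120862) was 236, 193, 176 and 125 TPM on day 0 and 154, 170.0 and 87.6 TPM on day 6, a difference of -0.43 (SE 0.26, adjusted p = 0.201). Without the short transcript, Fcgbp at rectal day 6 differed from day 0 by 0.07 (SE 0.13, adjusted p = 0.67), so its call rests on that transcript. At rectal day 9 Fcgbp without it was still lower, with -0.87 (SE 0.27, adjusted p = 0.0225). The short transcript also made up 2221 of the 3677 TPM of Fcgbp in mid-colon mouse 18 at day 20. Reads were single-end, 75 bases long, and the coverage along a transcript cannot be seen in these values. The short Fcgbp transcript lies within the span of a longer model (chr7:28113827-28120861). How reads were shared between overlapping models cannot be seen either. A change in which transcripts were made and a change in 3′ bias of the libraries, as with RNA quality, therefore cannot be told apart here.

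**Figure D3:**
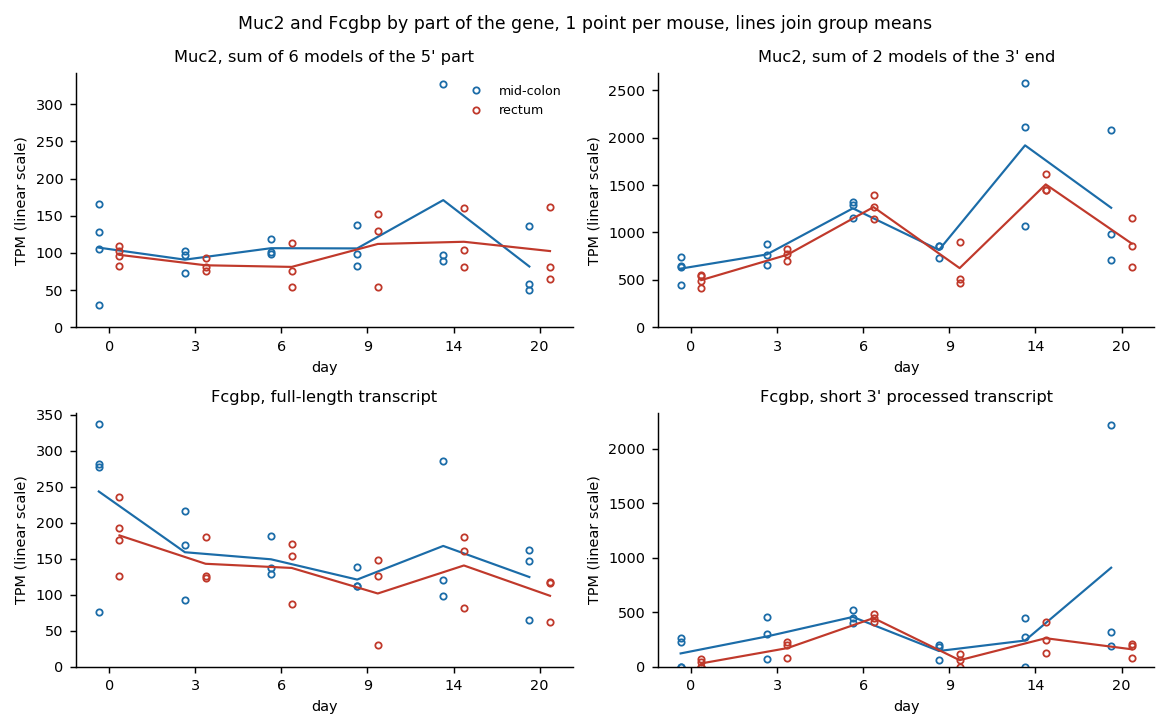
TPM (linear axis from 0) by day for the 6 models of the 5′ part and the 2 models of the 3′ end of Muc2, and for the full-length and the short 3′ transcript of Fcgbp, in mid-colon and rectum, with 1 point per mouse and lines through the group means. The 3′ sum of Muc2 goes from 498 to 1268 TPM in the rectum between days 0 and 6, while the 5′ sum stays between 54.1 and 114 TPM in these mice.

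Clca1 (ENSMUSG00000028255, chr3:145004537-145032776), the mucus protease, was higher in the rectum at days 3 and 6 and lower at day 9. Its values were 2235, 1962, 2529 and 2488 TPM on day 0, 3299, 3423 and 3245 TPM on day 3, 4503, 4465 and 4573.5 TPM on day 6 and 1196, 830.4 and 1103 TPM on day 9. The 3 mice of day 6 had an SD of 55.0 TPM, and no group of days 3, 6 and 9 overlapped day 0. The log2 difference was 0.54 (SE 0.10, adjusted p = 0.0127), 0.98 (SE 0.10, adjusted p = 0.000392) and -1.15 (SE 0.15, adjusted p = 0.00028) on these days, and the call at day 3 held in 5 of 7 refits without 1 mouse. In the mid-colon Clca1 was called at day 9 alone, where it was 2.87-fold lower on the scale of TPM + 1, -1.52 (SE 0.18, adjusted p = 0.000117), with mice at 1952, 1121 and 1469 TPM against 3985.5, 3999, 4158 and 4873 TPM on day 0. At rectal day 14 the mice were at 4174, 1316 and 1341 TPM, with mouse 14 above and the other two below every control.

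Zg16 (ENSMUSG00000049350, chr7:127050156-127052675), the bacteria-binding lectin, was lower at day 3 in both colonic sections. In the mid-colon it was 11651, 10240.5, 9427 and 13927 TPM on day 0 and 6130.1, 6266 and 6304 TPM on day 3, and in the rectum 5923, 5099.6, 5252 and 6871 TPM and 3502, 3883 and 3051 TPM. Neither pair of groups overlapped, and the differences were -0.84 (SE 0.13, adjusted p = 0.0374) and -0.73 (SE 0.12, adjusted p = 0.00934). The mid-colonic call held in 2 of 7 refits without 1 mouse and was lost with normalization factors from a trimmed mean of M values. At day 6 Zg16 was higher, 11753, 10421 and 11296 TPM in the rectum and 16510.1, 15841 and 14483.5 TPM in the mid-colon, by 0.96 (SE 0.12, adjusted p = 0.000728) and 0.48 (SE 0.14, adjusted p = 0.0457), and the mid-colonic call held in 1 of 7 refits. At day 9 it was not called in either section, unlike Clca1, and rectal mice were at 8759, 5476.5 and 7953 TPM.

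Tff3 (ENSMUSG00000024029, chr17:31125306-31129611) and Spink4 (ENSMUSG00000028415, chr4:40920056-40931395), both small secreted proteins, had the largest log2 rises of the 10 at rectal day 6. Rectal Tff3 was 3354, 2760.3, 2909.8 and 3518 TPM on day 0, 6506, 7876 and 9485 TPM on day 6 and 1983.5, 1680.0 and 2358 TPM on day 9, and the differences were 1.33 (SE 0.14, adjusted p = 0.000412) and -0.65 (SE 0.14, adjusted p = 0.00465). Rectal Spink4 was 829.8, 852, 745 and 1058 TPM on day 0, 2548, 3183 and 3775 TPM on day 6, 675, 821 and 679 TPM on day 9 and 2900.0, 2836 and 3887 TPM on day 14. It was 3.62-fold higher at day 6, 1.85 (SE 0.16, adjusted p = 0.000161), not called at day 9, and 3.67-fold higher at day 14, 1.88 (SE 0.16, adjusted p = 0.00233). Every Spink4 value of days 6 and 14 was above all of day 0, and those of day 9 were not. At day 20 Spink4 was the one member higher in the rectum, by 1.17 (SE 0.26, adjusted p = 0.0384), a call that held in 1 of 7 refits without 1 mouse. At rectal day 3 Spink4 was higher by 0.71 (SE 0.16, adjusted p = 0.0312), in 2 of 7 refits. In the mid-colon both were higher at day 6, Tff3 by 0.71 (SE 0.13, adjusted p = 0.00859) and Spink4 by 1.00 (SE 0.17, adjusted p = 0.00737). Spink4 was also higher there at day 14, by 1.76 (SE 0.39, adjusted p = 0.0385), with mice at 1842, 3639 and 7119.6 TPM, and that call held in 2 of 7 refits.

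Sycn (ENSMUSG00000084174, chr7:28540885-28542210) was lower in the rectum than before injury on each of days 6, 9, 14 and 20. Its rectal values were 2782, 2812, 3220.3 and 2485 TPM on day 0, 1351, 1184 and 1600.3 TPM on day 6, 310.2, 342 and 414 TPM on day 9, 1426, 544 and 475 TPM on day 14 and 381, 685 and 1452 TPM on day 20. None of these later mice reached the lowest mouse of day 0. The differences were -1.04 (SE 0.13, adjusted p = 0.000667) at day 6, -2.99 (SE 0.13, adjusted p = 1.15e-06) at day 9, which is 7.95-fold, -1.97 (SE 0.35, adjusted p = 0.015) at day 14 and -1.96 (SE 0.38, adjusted p = 0.0294) at day 20. In the mid-colon the differences were -0.91 (SE 0.15, adjusted p = 0.00538) at day 6, -2.87 (SE 0.21, adjusted p = 1.28e-05) at day 9 and -1.33 (SE 0.23, adjusted p = 0.0184) at day 14, the last called in 3 of 7 refits without 1 mouse. The rectal call at day 20 held in 2 of 7 refits without 1 mouse. The 10 acinar pancreas genes summed to 38.8 to 65.9 TPM in the 4 rectal samples of day 0, and Clps made nearly all of it, with a mean of 50.6 TPM. Cpa1, Pnlip, Cela3b, Ctrb1 and Amy2a5 were at 0 in each of these samples. Clps, the colipase gene, was higher at rectal day 6 (0.70, SE 0.18, adjusted p = 0.0135) when Sycn was lower, and lower at day 9 (-1.67, SE 0.19, adjusted p = 0.000117).

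Across the 38 mid-colon and rectum samples, the gene whose log2(TPM + 1) was most like that of Sycn was Slc37a2, one of the absorptive colonocyte markers (Pearson r = 0.928), and Sycn was the member least like the mean of the other 9 (r = 0.364). Fcgbp (0.876) and Tff3 (0.885) were most like that mean. The 5 genes outside the members that were most like the mean of all 10 were Tpsg1 (0.912), Sval1 (0.887), Rep15 (0.873), Capn9 (0.863) and Hpd (0.848). Atoh1 was most like Ern2 (0.884), Clca1 like Gm1123 (0.936) and Zg16 like Spink1 (0.807), while Muc2 and Spdef had the same nearest gene, Tspan13 (0.841 and 0.854). These are descriptions over samples that share mice and the same changes over time.

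Markers of other cells moved on the same days. Of all genes tested in the rectum, 11.5% were higher and 37.2% lower at day 6, and 33.5% were higher and 20% lower at day 9. The 8 intestinal epithelial genes summed to 10497 TPM (10038 to 10967 in 4 mice) at rectal day 0, 12318 TPM (10947 to 13555 in 3 mice) at day 6 and 5922 TPM (5264 to 6941) at day 9, with 1 gene higher and 2 lower of 8 at day 6 and 1 higher and 5 lower at day 9. The 8 absorptive colonocyte genes summed to 10963 TPM on day 0, 13431 TPM on day 6, where 3 were higher and 4 lower, and 3694 TPM on day 9, where 7 were lower and 1 higher. The neutrophil genes, also 8, went from 3.41 TPM on day 0 to 1731 TPM (422 to 3957) at day 6 and 13441 TPM (12748 to 14056) at day 9. Of the proliferation genes 5 of 6 were lower at day 6 and 6 of 6 higher at day 9, and of the enteroendocrine genes 4 of 4 tested were higher on both days. When each sample was set relative to its intestinal epithelial genes, 7 members were higher and 2 lower at rectal day 6, and Agr2 was no longer called (0.65, adjusted p = 0.0574). Among all 12615 genes, 1314 were higher and 3847 lower at day 6 on that scale. At rectal day 9, on that scale, 8059 of 13140 genes were higher and 1285 lower, and the median of all genes was 0.62. Muc2 (0.74), Spdef (0.58) and Zg16 (0.83) were higher there, with Spdef under that median. Agr2 (-0.57), Atoh1 (-0.77), Clca1 (-0.66) and Sycn (-2.50) were lower. The part of neutrophils, colonocytes and proliferating cells in these differences was not tested.

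Between days 9 and 20 some members rose again. In the rectum 4 were higher at day 20 than at day 9 (5.95% of all genes): Agr2 by 1.48 (SE 0.19, adjusted p = 0.00422), Spink4 by 1.43 (SE 0.29, adjusted p = 0.015), Atoh1 by 0.97 (SE 0.25, adjusted p = 0.0315) and Clca1 by 0.86 (SE 0.21, adjusted p = 0.0271). In the mid-colon 3 were higher (6.08%): Sycn by 2.15 (SE 0.24, adjusted p = 0.00148), Clca1 by 1.35 (SE 0.28, adjusted p = 0.0115) and Atoh1 by 0.78 (SE 0.22, adjusted p = 0.0363). Rectal Sycn was 381, 685 and 1452 TPM on day 20 against 310.2, 342 and 414 TPM on day 9, and the groups overlapped without a call. The calls of Atoh1 held in 2 of 6 rectal and 1 of 6 mid-colonic refits without 1 mouse.

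Other genes linked to goblet cells or their lineage, 54 in 4 lists, were read beside the members. The lists were made by name, and a listed factor may act for or against a goblet fate. At rectal day 6, 13 of 45 tested genes were higher (11.5% of all genes) and 11 lower (37.2%), with a median of 0.04 against -0.27 over all genes. At rectal day 9, 7 of 46 were higher (33.5%) and 29 lower (20%), with a median of -0.68 against 0.13. Among transcription factors, 1 of 9 was higher (11.5% of all genes) and 5 were lower (37.2%) at day 6. Xbp1, a factor of the unfolded protein response, went from 94.0 to 131 TPM (0.45, SE 0.14, adjusted p = 0.0258). Creb3l1 fell by 1.30 (SE 0.21, adjusted p = 0.00192) and the forkhead factor Foxa2 by 1.28 (SE 0.21, adjusted p = 0.00235). At day 9, 7 of 9 were lower (20% of all genes), led by Klf4 (287 to 103 TPM, -1.51, SE 0.20, adjusted p = 0.000309) and Hes1 (-1.38, SE 0.20, adjusted p = 0.000547), and Xbp1 was again higher (0.61, SE 0.12, adjusted p = 0.00254).

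Of the enzymes that add O-linked sugars to mucins, 7 of 13 tested were higher at day 6 (11.5% of all genes) and 1 was lower (37.2% of all genes), Gcnt1 (-0.38, SE 0.14, adjusted p = 0.0445). Chst4, a sulfotransferase, went from 11.5 to 25.7 TPM (1.11, SE 0.18, adjusted p = 0.00202) and Fut2, a fucosyltransferase, from 32.9 to 69.1 TPM (1.05, SE 0.13, adjusted p = 0.00073). At day 9 the list was split, with 5 of 14 higher (33.5% of all genes) and 5 lower (20%). Gcnt4 (1.52, SE 0.18, adjusted p = 0.000143) and Galnt3 (22.9 to 62.1 TPM, 1.40, SE 0.13, adjusted p = 5.21e-05) were higher. Galnt5 (-1.18, SE 0.20, adjusted p = 0.00116) and Galnt7 (-0.90, SE 0.20, adjusted p = 0.00502) were lower.

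Of the genes of the granule, the endoplasmic reticulum and secretion, 3 of 17 were higher (11.5% of all genes) and 3 lower (37.2%) at day 6. At day 9, 14 of 17 were lower (20% of all genes) and none was higher (33.5%). Rep15, a protein of the recycling endosome, was 94.9 TPM on day 0, 205 TPM on day 6 (1.10, SE 0.11, adjusted p = 0.000324) and 32.3 TPM on day 9 (-1.80, SE 0.42, adjusted p = 0.0061). Scin, an actin-severing protein, was higher at day 6 by 0.81 (SE 0.10, adjusted p = 0.000877). The bicarbonate channel gene Best2 was 26.9 TPM on day 0 and fell by 2.23 (SE 0.31, adjusted p = 0.00115) at day 6 and by 2.70 (SE 0.55, adjusted p = 0.00315) at day 9, and Rab3d fell by 0.94 (SE 0.22, adjusted p = 0.0085) at day 6. Nlrp6, an inflammasome sensor, fell by 2.54 (SE 0.16, adjusted p = 7.29e-06) at day 9.

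Of the other secreted products, 2 of 6 were higher (11.5% of all genes) and 2 lower (37.2%) at day 6, and 1 was higher (33.5%) and 3 lower (20%) at day 9. Retnlb, the resistin-like molecule of goblet cells, went from 0.319 TPM on day 0 to 18.7 TPM on day 6 (3.85, SE 0.23, adjusted p = 3.1e-05) and 118 TPM on day 14 (5.70, SE 0.83, adjusted p = 0.00996). Reg4, a marker of deep crypt secretory cells, went the other way, from 171 TPM on day 0 to 59.1 TPM on day 3 (-1.52, SE 0.17, adjusted p = 0.00117) and 16.4 TPM on day 6 (-3.58, SE 0.42, adjusted p = 0.000569), and it was 452 TPM on day 14 (1.38, SE 0.21, adjusted p = 0.0109). Guca2a, a guanylin precursor, was higher at day 6 (0.77, SE 0.22, adjusted p = 0.0211), while Tgm3 was lower by 0.74 (SE 0.15, adjusted p = 0.00567) at day 6 and, with the kallikrein Klk1 (-2.81, SE 0.15, adjusted p = 2.83e-06), by 3.67 (SE 0.12, adjusted p = 2.91e-07) at day 9.

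**Figure D4:**
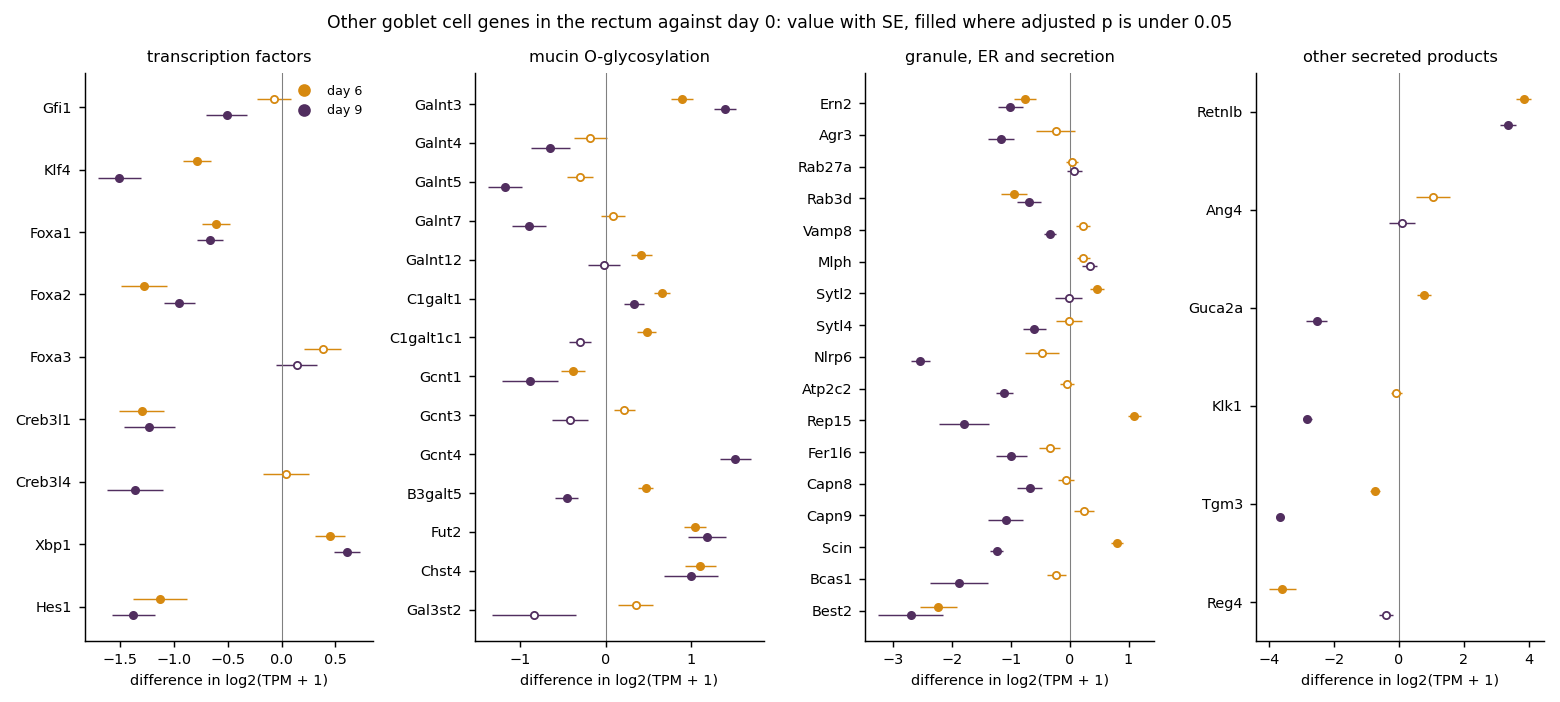
Difference in log2(TPM + 1) from day 0 in the rectum at days 6 and 9, with its SE, for the genes of 4 further goblet cell lists, filled where limma's adjusted p was under 0.05. At day 6, 7 of 13 sugar-adding enzymes are filled on the right, at day 9 14 of 17 granule and secretion genes are filled on the left, and Retnlb and Reg4 mark the extremes at day 6 with 3.85 and -3.58.

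The anal section held much less of the program. At day 0 all 10 members were lower in the anus than in the rectum (34.4% of all genes), from Spdef at -1.16 (SE 0.26, adjusted p = 0.00326) to Zg16 at -4.80 (SE 0.36, adjusted p = 3.19e-06). Their sum was 1072 to 3794 TPM in the 4 mice. At day 3 limma called no member (4 at an unadjusted p under 0.05, 0.044% of all genes called). At day 6, 8 of the 9 members tested were lower (6.37% of all genes), as at day 9 (3.63%), and Atoh1, at or under 0.0259 TPM in these mice, did not pass the filter. The sum of the 10 was 51.4 to 101 TPM on day 6 and 37.3 to 72.3 TPM on day 9.

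Anal Muc2 was 24.3, 37.7, 40.3 and 154 TPM on day 0, 3.16, 1.4 and 3.41 TPM on day 6 and 0.637, 1.58 and 0.737 TPM on day 9, and the difference was -3.83 (SE 0.56, adjusted p = 0.00305) at day 6. Anal Sycn had the largest difference, -8.07 (SE 0.42, adjusted p = 0.000112) at day 9, with mice at 0.322, 1.4 and 0.511 TPM against 336, 523, 254 and 928 TPM. Spdef was the member not called on these days, at 1.92, 2.8 and 1.98 TPM on day 6 against 5.39, 9.25, 3.16 and 5.79 TPM. Fcgbp kept 32.7, 18.9 and 55.8 TPM on day 6, of which the short 3′ transcript made 60.2%. The intestinal epithelial sum went from 2213 TPM (1189 to 3903) at day 0 to 97.6 TPM (73.8 to 132) at day 6, with 7 of 7 tested genes lower, and the squamous sum from 12652 to 18337 TPM. The 5 skeletal muscle genes summed to 6548 TPM (1492 to 14336) in the anus at day 0, against 19 TPM in the rectum, to 4315 TPM (1708 to 7652) at day 6 and to 6412 TPM (5869 to 6831) at day 9. None of the 4 muscle genes tested was called at anal day 6 and all 4 were called higher in the anus than in the rectum at day 0, and their part in the anal values was not tested. Each sample was also set relative to its intestinal epithelial genes, which moved the median of all genes from 0.07 to 4.03 at day 6. On that scale 13582 of 13730 genes were higher and 31 lower. Agr2 (-1.37), Clca1 (-1.35), Tff3 (-1.33) and Sycn (-2.73) were still lower at day 6, while Muc2 (0.14), Zg16 (-0.05) and Spink4 (-0.69) were not called. Fcgbp (1.65) and Spdef (2.93) were higher than at day 0, though under the median of all genes. At day 14, 3 members were lower (2.01% of all genes), Agr2 and Fcgbp, in 2 and 1 of 7 refits without 1 mouse, and Sycn, and at day 20 limma called none (2 at an unadjusted p under 0.05, 1.46% of all genes), with mouse 17 far above the other two, as for Zg16 at 1421, 22.5 and 211 TPM. Without mouse 17, 2 members were called at day 20.

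The fall in the anus at day 6 differed from the rise in the rectum of the same mice. In an interaction fit added after both directions were seen, 9 of the 10 members had a larger difference from day 0 in the rectum than in the anus (6.16% of all genes), by 1.59 (Spdef, SE 0.35, adjusted p = 0.00553) to 6.62 (Tff3, SE 0.51, adjusted p = 4.3e-06). For 8 of these, all 3 rectal mice were above the day 0 mean and all 3 anal mice below theirs. Sycn was lower in both sections, by 5.65 less in the rectum (SE 0.49, adjusted p = 8.46e-06), and Atoh1 was not called (0.46, SE 0.44, adjusted p = 0.493).

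The squamous neo-epithelium held little of the program at day 9 and more at day 20. At day 9 the 10 members summed to 21 to 170 TPM in the 3 mice, at day 14 to 989 to 9129 TPM and at day 20 to 4326 to 9799 TPM. At day 20, 9 members were higher than at day 9 (10.1% of all genes), and the groups did not overlap for any of them. Zg16 was 36.2, 2.21 and 6.42 TPM on day 9, 2912, 375 and 559.8 TPM on day 14 and 2439, 1875 and 3779.5 TPM on day 20, a difference of 8.07 (SE 0.84, adjusted p = 0.00307) between days 9 and 20. Muc2 went from 12.2, 0.154 and 2.84 TPM to 438, 144 and 488 TPM (6.34, SE 0.90, adjusted p = 0.00573) and Sycn from 4.08, 0.413 and 0.746 TPM to 507, 201 and 707.5 TPM (7.49, SE 0.62, adjusted p = 0.00194). Spdef was the exception, with 1.38, 6.14 and 2.69 TPM on day 9 and 10.6, 7.23 and 8.81 TPM on day 20 (1.30, not called, adjusted p = 0.0532). The intestinal epithelial sum rose beside the members, from 143 to 660 TPM on day 9 to 2594 to 6222 TPM on day 20, while the squamous sum was 30503 to 32679 TPM and 19647 to 24025 TPM. The neutrophil sum was 15494 TPM (7496 to 19622) on day 9 and 2649 TPM (548 to 6322) on day 20, with 2 of 8 genes called lower. S100a8 and S100a9 made most of it on day 9 (means of 6914 and 6505 TPM), and the anus at day 0 held 260 and 427 TPM of them. Mean Csf3r was 73.4 TPM on day 9 and 77.9 TPM on day 20. The means of the other listed genes were lower on day 20, from Trem1 (37.9 and 25.8 TPM) to Retnlg (1094 and 93.7 TPM). The part of neutrophils in the result was not tested. Relative to the intestinal epithelial genes, 7 members were still higher at day 20, Spdef was lower (-2.49, adjusted p = 0.0358), and Agr2 and Atoh1 were not called, on a scale that moved the median of all genes from -0.14 to -3.93. Of 13186 genes, 26 were higher and 12463 lower on that scale, and Spdef was above the median.

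**Figure D5:**
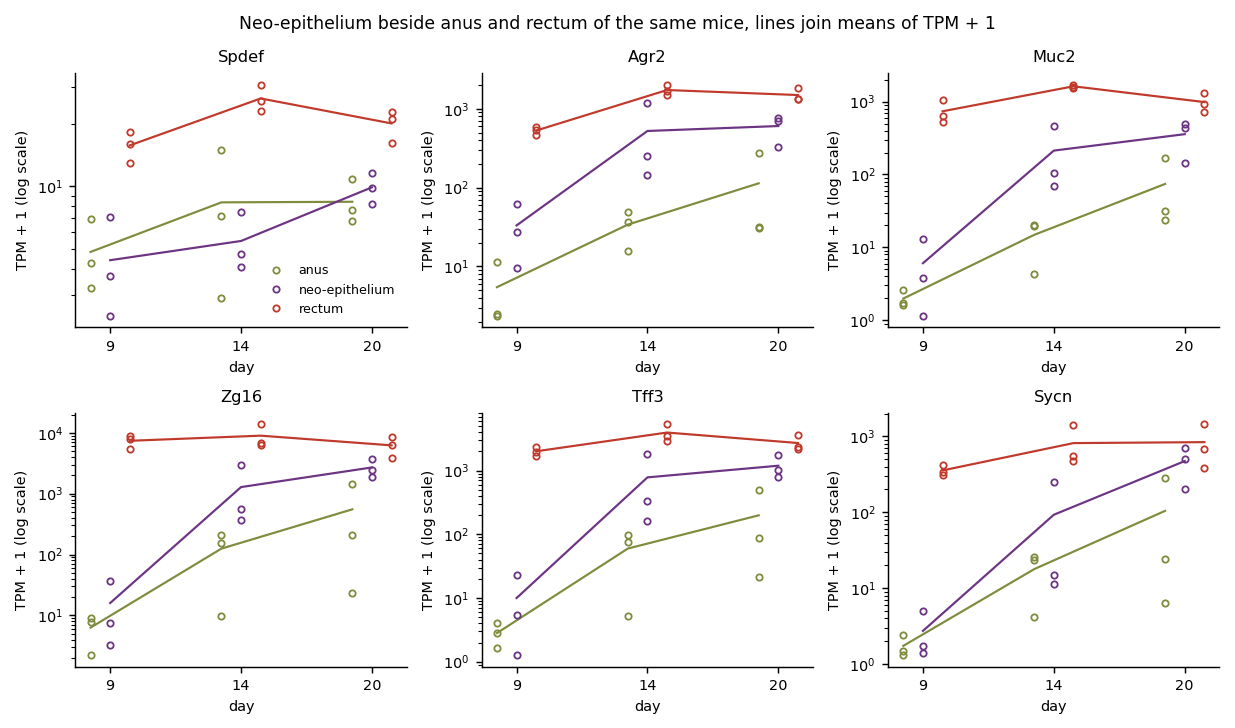
TPM + 1 (log axis) by day for 6 members in anus, neo-epithelium and rectum of the mice of days 9, 14 and 20, with 1 point per mouse and lines through the means. Neo-epithelial Zg16 goes from 2.21 to 36.2 TPM on day 9 to 1875 to 3780 TPM on day 20, mouse 14 is the high neo-epithelial point of day 14, and Spdef spans 1.38 to 10.6 TPM in the neo-epithelium.

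Over days 9, 14 and 20 together, all 10 members were lower in the neo-epithelium than in the rectum of the same mice (21.3% of all genes), from Spdef at -1.77 (SE 0.22, adjusted p = 9.07e-06) to Zg16 at -4.69 (SE 0.96, adjusted p = 0.000792). With the mouse as a block, limma's adjusted p was 0.000201 for Spdef and 0.00537 for Zg16. Against the anus, 7 were higher (38.1% of all genes, so the share of members is read against a high background), led by Agr2 at 3.09 (SE 0.53, adjusted p = 0.000128). Spdef (-0.11), Fcgbp (-0.54) and Sycn (1.79, adjusted p = 0.0515) were not called, and with the mouse as a block Sycn was (adjusted p = 0.0309). The 9 neo-epithelial and 9 anal samples overlapped for all 7 of the higher members, and the calls of Atoh1 and Clca1 held in 10 of 18 refits without 1 sample. The full-length transcript of Fcgbp alone was higher in the neo-epithelium than in the anus, by 1.81 (SE 0.50, adjusted p = 0.00528). Its short 3′ transcript was lower in the neo-epithelium, with -2.75 (SE 0.82, adjusted p = 0.00888), and Fcgbp without the short transcript was not called (0.20, SE 0.70, adjusted p = 0.818). Relative to the intestinal epithelial genes, 6 members were lower than in the rectum, on a scale where 14077 of 14492 genes were higher and the median of all genes was 2.80. Against the anus none was higher on this scale, and Fcgbp (-2.88), Spdef (-2.45) and Atoh1 (-1.57) were lower, where 14166 of 14861 genes were lower and the median of all genes was -2.17.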

How the data were processed

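RNA from 66 tissue sections of 19 mice was measured by bulk RNA-seq (single-end reads of 75 bases from a stranded mRNA kit, per the labels' protocols). CASAVA, kallisto and the build mm10 are named in the submitters' processing notes, without versions or roles. The deposited table holds TPM per transcript, a relative abundance that keeps no counts. Depth is therefore unknown and no counting interval is given. The authors' TPM columns exceed their nominal total because 1318 rows repeat a transcript. These repeats were dropped, after which every column came within 0.224 TPM of its nominal total, and transcripts were summed per gene. Between 11268 and 13789 genes reached 1 TPM in a sample, and mitochondrial genes took 6.26% to 28.5% of TPM.

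Groups follow the labelled section and day. The 10 members, the other gene lists and the tests were chosen with earlier results of these data known. Each comparison was a limma 3.58.1 fit (R 4.3.3) on log2(TPM + 1) over all genes that reached 1 TPM in a number of samples equal to the size of the smaller group, with a trended prior, Benjamini-Hochberg adjustment and a threshold of 0.05. A fold is given on the scale of TPM + 1. The scripts were tested on simulated data. Members were named throughout. Of each other goblet list, up to 2 called genes with the largest rise and 2 with the largest fall were named per comparison. Pattern neighbours had a mean of at least 8 TPM and the highest Pearson r over 38 samples. Sections of one animal were not paired in the main fits. The mouse given by the labels entered only as a block in an alternative fit. The mean correlation of same-mouse deviations ran from 0.05 to 0.26 over 6 comparisons. Alternatives were another pseudocount, no filter, trimmed-mean factors, levels relative to 8 intestinal epithelial genes, the mouse as a block, all samples in one fit and leaving out each sample. Chosen after the data were seen were a fit of 38 samples, the rectum and anus interaction, and the split of Muc2 and Fcgbp by transcript. Positions are on GRCm38, the build named mm10, and promoter sequence is from RefSeq GRCm38.p6.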

Additional observations from a re-analysis of the deposited data

Results flagged for a closer look

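The differences from day 0 at day 6 were compared between rectum and anus of the same mice. They differed for 9 of the 10 members in a fit with an interaction term (limma, adjusted over all genes, added after the directions were seen). The rectal difference exceeded the anal one by 5.00 for Muc2, 3.05 for Fcgbp, 4.97 for Zg16, 6.29 for Clca1, 6.62 for Tff3, 5.91 for Agr2, 1.59 for Spdef, 6.50 for Spink4 and 5.65 for Sycn, all on the log2(TPM + 1) scale. In the anus the summed intestinal epithelial genes went from 2213 to 97.6 TPM between these days, and in the rectum from 10497 to 12318 TPM. The mean log2(TPM + 1) of these genes went from 6.11 to 2.14 in the anus and from 8.55 to 8.49 in the rectum.

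A single mouse lay far from the other 3 in 4 of 30 checks, which are the 10 members in each of the 3 sections of the 4 mice of day 0. Chance flags about 1 in 20 independent checks, and these are not independent, since the members of a section come from the same 4 libraries and 3 of the 4 findings are 1 library. In the anus at day 0, mouse 4 had 153.9 TPM of Muc2, 502.5 TPM of Zg16 and 3.82 TPM of Atoh1, each above the other 3 mice, and its intestinal epithelial sum was the highest of the group, at 3903 TPM. In the mid-colon at day 0, mouse 3 had 16.5 TPM of Spdef against 12.9 to 13.3 TPM in the others.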

How the results depend on the processing

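A pseudocount of 0.1 kept the side of the threshold for 235 of 237 member values, and trimmed-mean factors for 224 of 237. No value called in either fit changed sign, and changes of sign among values not called were not counted. Trimmed-mean factors left 0 members called at mid-colonic day 3 in place of 1. Without the filter on low values, where more genes enter the adjustment, the calls were 1 of 3 at anal day 14, 0 of 4 at mid-colonic day 14, 0 of 1 at day 3, 3 of 6 at day 6 and 3 of 5 at day 9, 1 of 5 at rectal day 3, 0 of 2 at day 20, 1 of 3 between rectum and mid-colon at day 0, and 1 of 3 and 2 of 4 between days 9 and 20 in mid-colon and rectum. With all 66 samples in one fit they were 7 and 2 at anal days 14 and 20, 0, 0, 2 and 1 at mid-colonic days 3, 6, 9 and 14, 0, 1, 2, 1 and 0 at rectal days 3, 6, 9, 14 and 20, 0 between rectum and mid-colon, and 1 and 2 between days 9 and 20. With the 38 colonic samples in one fit they were 0, 3 and 2 at mid-colonic days 3, 6 and 20, 7 between mid-colonic days 9 and 20, 0 at rectal day 3 and 0 between rectum and mid-colon. The mouse as a replicate block, which pairs sections of one animal, gave 2 calls in place of 0 for the difference between rectum and mid-colon at day 6, added Sycn between neo-epithelium and anus, and changed no other call. The calls among all genes moved with the setting too. At anal day 14 they were 311 higher and 277 lower in the main fit, and 696 and 728 with all 66 samples.

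Relative to the intestinal epithelial genes the counts were 5 for anus against rectum at day 0, 2 at anal day 20, 2 at mid-colonic day 20, 0 at mid-colonic day 3, 3 for neo-epithelium against anus, 6 against rectum and 2 between rectal days 9 and 20. On this scale 37 of 237 member values had the other sign, 19 of them called on neither scale. The 18 called on one or both follow. Against rectum at day 0, the anus had 0.44 for Fcgbp, 1.29 for Spdef and 0.00 for Spink4. Anal day 6 had 0.14 for Muc2, 1.65 for Fcgbp and 2.93 for Spdef, anal day 9 had 2.02 for Fcgbp and 3.69 for Spdef, and anal day 14 had 0.58 for Agr2, 0.77 for Fcgbp and 1.41 for Zg16. Neo-epithelium against rectum had 0.11 for Agr2, 0.81 for Atoh1 and 1.02 for Spdef, against anus -1.57 for Atoh1 and -0.35 for Clca1, and between days 9 and 20 -1.79 for Atoh1 and -2.49 for Spdef. This scaling moved the median of all genes to 4.03 at anal day 6 and -3.93 between neo-epithelial days 9 and 20. With it, 13582 of 13730 genes were higher at anal day 6. Between neo-epithelial days 9 and 20, 12463 of 13186 were lower. For anus against rectum at day 0, 12503 of 13158 genes were higher, with a median of 2.29. The Muc2 models of the 5′ part alone had -0.22 and -0.32 at rectal days 3 and 6, and full-length Fcgbp alone had -0.43 at rectal day 6 and 1.81 for neo-epithelium against anus. The cause of these reversals was not tested.

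Leaving out each sample in turn gave counts of 10 to 10 for anus against rectum at day 0, 1 to 3 at anal day 14, 0 to 2 at day 20, 8 to 9 at day 6, and in the mid-colon 0 to 1 at day 3, 3 to 8 at day 6, 3 to 5 at day 9, 0 to 5 at day 14 and 0 to 1 at day 20. They were 1 to 7, 9 to 10, 5 to 6, 3 to 6 and 0 to 2 at rectal days 3, 6, 9, 14 and 20, 1 to 4 between rectum and mid-colon at day 0, 1 to 3 and 1 to 5 between days 9 and 20 in mid-colon and rectum, 8 to 9 in the neo-epithelium, 5 to 8 for neo-epithelium against anus, and 0 to 1 for the difference between sections at day 9. Counts moved by over 1.5 times without mice 2, 4, 15 or 16 (anal day 14, to 1), 17 (anal day 20, to 2), 1, 2, 15 or 16 (mid-colonic day 14, to 0) or 3 (to 1), 4 or 19 (mid-colonic day 20, to 1), 1, 2, 5, 6 or 7 (mid-colonic day 3, to 0), 9 (mid-colonic day 6, to 3), and 1 or 12 (mid-colonic day 9, to 3). The same held without mice 2, 3 or 16 (rectal day 14, to 3), 1, 2, 3, 4 or 18 (rectal day 20, to 0), 5 or 6 (rectal day 3, to 1 and 2), rectal 1, 2 or 3 or mid-colonic 1 (between the sections at day 0, to 1), 12 (mid-colonic days 9 and 20, to 1, and the difference between sections at day 9, to 1), and 12, 13 or 18 (rectal days 9 and 20, to 2, 1 and 2). With no counts deposited, the precision that depth gives to low members such as Atoh1 is unknown.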
